A study of Mus musculus with 8 samples.

Results

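The cytosolic ribosome is built from a large (60S) and a small (40S) subunit, each an assembly of ribosomal RNA and ribosomal proteins (RPs). The messenger RNAs (mRNAs) of the cytosolic RPs were followed here in the dentate gyrus of mice that lack Derlin-1 or Derlin-2. Members were all array probes whose gene symbol starts with Rpl or Rps and continues with a number and at most 1 letter, together with Rplp0, Rplp1, Rplp2 and Rpsa. This symbol rule found 181 probes for 82 genes, of 26894 gene symbols on the array, with 50 genes of the large and 32 of the small subunit. Each gene is given by its brightest probe, and 79 genes passed the filter on dim probes. The rule goes by symbol, so the counts of RP genes and of the small subunit also hold Rps4l, which the array annotates as a non-coding RNA. The genes that did not pass were Rpl3l, Rpl10l and Rpl39l, paralogues of Rpl3, Rpl10 and Rpl39, and their probes were well above background on 0, 0 and 1 of the 8 arrays. The rule leaves out some genes, such as Fau, Rack1 and Rps3a1, which also encode proteins of the small or large subunit.

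The Derlins sit in the membrane of the endoplasmic reticulum (ER), where they help to move misfolded proteins out for degradation. Derlin-1 control mice were Derl1 flox/flox and Derlin-2 control mice were Derl2 flox/flox, while the KO mice of each line carried in addition Cre recombinase under the nestin promoter, which is active in neural precursors. The KO groups rest on the sample titles. All were C57BL/6 males aged 8 to 9 weeks, with 2 arrays in each of the 4 groups, and no group carried Cre alone. Cells outside the neural lineage keep the gene, so the dissected tissue holds deleted and undeleted cells. The comparisons asked whether loss of either Derlin in the brain goes with a change in RP mRNAs, and whether such a change differs between the Derlins.

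Cells make the RPs of both subunits in matched amounts, since a ribosome needs nearly all of them in equal number, and unassembled RPs are degraded. RP mRNAs are among the most abundant in most cells and are also long-lived. Most of them begin with a 5′ terminal oligopyrimidine (TOP) tract, a C followed by a run of C and T. Through this tract the kinase complex mTORC1 and the protein LARP1 set how much of the mRNA is translated, so the output of RPs can move while mRNA levels stay the same. Proteins that enter the ER are made by ribosomes docked on its membrane, and ER stress slows translation through phosphorylation of eIF2.

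The start sites of the RP genes are shown first because the TOP tract is the sequence that RP genes share and that the symbol rule did not use. The promoter table of RefSeq on GRCm38.p6 matched 61 of the 82 genes. A tract was counted where the annotated start, or a base within 5 bases of it, was a C followed by at least 4 bases that were all C or T, read on the gene's own strand. By this definition 29 of 61 RP genes (47.5%) held a tract, against 21.2% of the 27025 genes in the table and 24.6% of 69 mitochondrial RP genes. The share was 44.7% in the large and 52.2% in the small subunit. Annotated starts can lie some bases off the true start, and a missing match says only that these letters are not in this window. Below are 30 bases around the start of 5 genes with a tract and of 3 genes without one that recur in the results, with the tract in capitals:
Rps6 (chr4:86857353-86857382, minus strand): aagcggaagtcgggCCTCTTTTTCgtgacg
Rpl35 (chr2:39005117-39005146, minus strand): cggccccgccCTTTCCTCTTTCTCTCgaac
Rpl7a (chr2:26910792-26910821, plus strand): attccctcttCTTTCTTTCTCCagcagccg
Rplp2 (chr7:141447636-141447665, plus strand): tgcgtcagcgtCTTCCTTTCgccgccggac
Rps10 (chr17:27635230-27635259, minus strand): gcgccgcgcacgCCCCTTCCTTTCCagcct
Rpl10 (chrX:74270801-74270830, plus strand): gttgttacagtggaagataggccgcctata
Rpl11 (chr4:136053379-136053408, minus strand): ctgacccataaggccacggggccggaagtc
Rpsa (chr9:120127751-120127780, plus strand): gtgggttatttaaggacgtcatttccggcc
Genes with and without a tract had similar differences between KO and control, and this was not tested. The 29 measured genes with a tract had a median difference, KO minus control on the log2 scale, of 0.053 in the Derlin-1 and 0.033 in the Derlin-2 line. The 29 measured genes without one had medians of 0.050 and 0.050.

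Signals are log2 intensities after quantile normalization, and a difference of 1 is a doubling. On each array 67.6% to 70.8% of probes were well above background, and no spot was saturated. Each line sat on a slide of its own, with controls and KO samples at different positions, so the line cannot be told apart from the slide, nor the genotype from the position. Pearson's r between arrays of a group across probes was 0.987 to 0.993. The labels do not say whether the arrays of a group came from separate mice, so p-values measure the spread between these arrays, which may be technical. The brightest Derl2 probe read 11.36 and 11.22 in the Derlin-2 controls and 10.63 and 10.65 in the Derlin-2 KO arrays. The brightest Derl1 probe read 10.86 and 10.76 in the Derlin-1 controls and 10.56 and 10.65 in the KO arrays, with a difference of -0.20 ± 0.10 (SE). The dimmer Derl1 probe went the other way, with 0.46 ± 0.12 in the Derlin-1 line, while the dimmer Derl2 probe gave -1.05 ± 0.14 in the Derlin-2 line. Whether these probes lie in the deleted exons was not examined, so they do not check the labels.

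RP mRNAs were close to the control level in both lines, and no RP gene passed the test. With limma, 0 of 79 RP genes had an adjusted p under 0.05 in the Derlin-1 line, where 0% of 39981 probes passed. In the Derlin-2 line 0 of 79 passed against 0.0452% of 39812 probes. The lowest adjusted p of an RP gene was 0.9999 in the Derlin-1 and 0.98 in the Derlin-2 line. At an unadjusted p under 0.05, 1 gene (Rpl10) was reached in the Derlin-1 and 0 in the Derlin-2 line, against 4.69% and 5.51% of probes. The t-test of the methods gave 6 and 8 of 79 genes at the same unadjusted threshold, against 5.93% and 4.67% of probes, and 0 after adjustment in both lines.

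Under quantile normalization, the intervals bound how large a change could have been missed given the spread between these arrays. They do not cover shifts that depend on the scaling, nor the spread between mice if the arrays of a group are technical replicates. The 95% interval of the difference lay wholly within a change of 1.5-fold either way for 77 of 79 RP genes in each line. The exceptions were Rpl37 and Rpsa in the Derlin-1 line and Rpl37 and Rps4l in the Derlin-2 line. The standard error of an RP gene's difference was 0.10 in the median and reached 0.37 for Rpl37. In bulk tissue, fewer cells of a type and less RNA per cell cannot be told apart, so these values describe the dissected tissue as a whole.

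**Figure D1:**
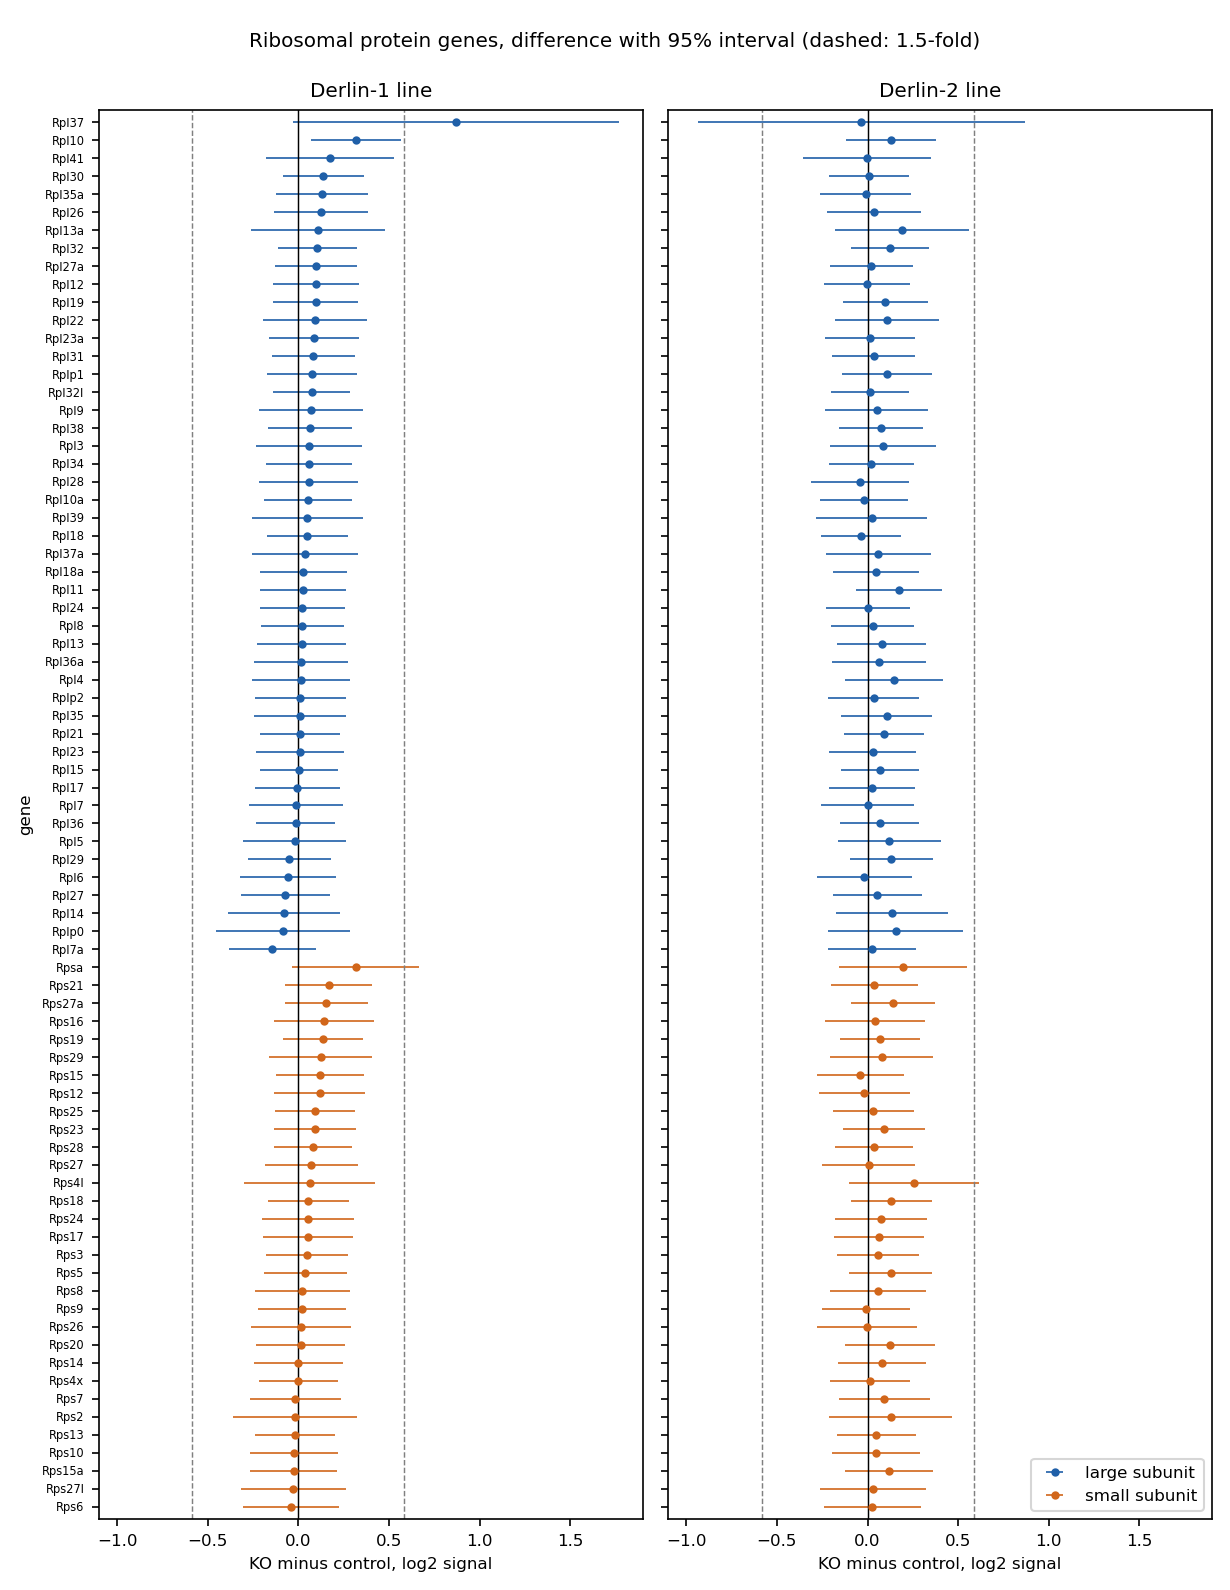
Difference between KO and control (log2 signal, x axis) of 78 of the 79 ribosomal protein genes, since 1 is not reported here (y axis, large subunit in blue, small subunit in orange, ordered by the Derlin-1 line) with its 95% interval from limma, in the Derlin-1 line (left) and the Derlin-2 line (right). Nearly all intervals stay between the dashed lines at a change of 1.5-fold, and Rpl37 has the widest.

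Most of the small differences had the same sign. In the Derlin-1 line 59 of 79 RP genes were above the controls on average, 37 of 47 in the large and 22 of 32 in the small subunit, against 8769 of all 19909 genes measured. In the Derlin-2 line 66 of 79 were above, 38 of 47 and 28 of 32, against 10366 of 19814 genes. RP genes also moved together between the Derlin-1 control arrays, where 56 and 23 of 79 lay above the mean of these controls. Of all genes, 11587 and 8261 of 19849 lay above on the same arrays. On the Derlin-2 control arrays 38 and 41 of 79 RP genes lay above, close to an even split under this normalization. The median difference of large-subunit genes was 0.049 in the Derlin-1 and 0.047 in the Derlin-2 line. For small-subunit genes it was 0.050 and 0.058. These medians correspond to 1.03- to 1.04-fold. The median over all genes was -0.020 and 0.008 in the respective lines. Among the 1992 genes with the highest mean signal it was -0.050 and -0.003.

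The size of these medians depended on single arrays and on the scaling. Without replicate 2 of the Derlin-1 controls, the medians in that line were 0.019 for the large and 0.024 for the small subunit and 46 of 79 genes were above the controls. With each array scaled to its 75th percentile in place of quantile normalization, the medians in the Derlin-2 line were 0.10 for the large and 0.12 for the small subunit, and 78 of 79 genes were above. Under that scaling the median of the 1992 brightest genes in the Derlin-2 line was also above 0, at 0.055, and that of all genes was 0.022. The sign of the medians was positive in every alternative run.

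Seen by array, the subunits moved together. As a median deviation from the mean of the line's controls, large-subunit genes were at 0.037 and -0.037 on the Derlin-1 control arrays and at 0.052 and 0.026 on the KO arrays. Small-subunit genes were at 0.016 and -0.016 on these controls and at 0.053 and 0.039 on the KO arrays. For the large subunit, 1 Derlin-1 control array therefore lay above 1 KO array, whereas for the small subunit both KO arrays were above both controls. This overlap depended on the scaling. With scaling to the 75th percentile the large subunit was at -0.019 and 0.019 on the controls and at 0.086 and 0.058 on the KO arrays, without overlap and with the controls in the opposite order.

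In the Derlin-2 line the large-subunit median was -0.0008 and 0.0008 on the controls against 0.058 and 0.046 on the KO arrays. The small-subunit median was -0.012 and 0.012 against 0.056 and 0.053. Neither subunit's control and KO arrays overlapped in this line. The medians over all genes on the same 4 arrays lay between -0.0026 and 0.011. With scaling to the 75th percentile the large subunit was at -0.064 and 0.064 on these controls and at 0.144 and 0.077 on the KO arrays. The small subunit was at -0.066 and 0.066 against 0.157 and 0.088. Under that scaling 10 and 69 of 79 RP genes lay above the control mean on the 2 controls. The controls then lay farther apart than the median KO difference, though without overlap.

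**Figure D2:**
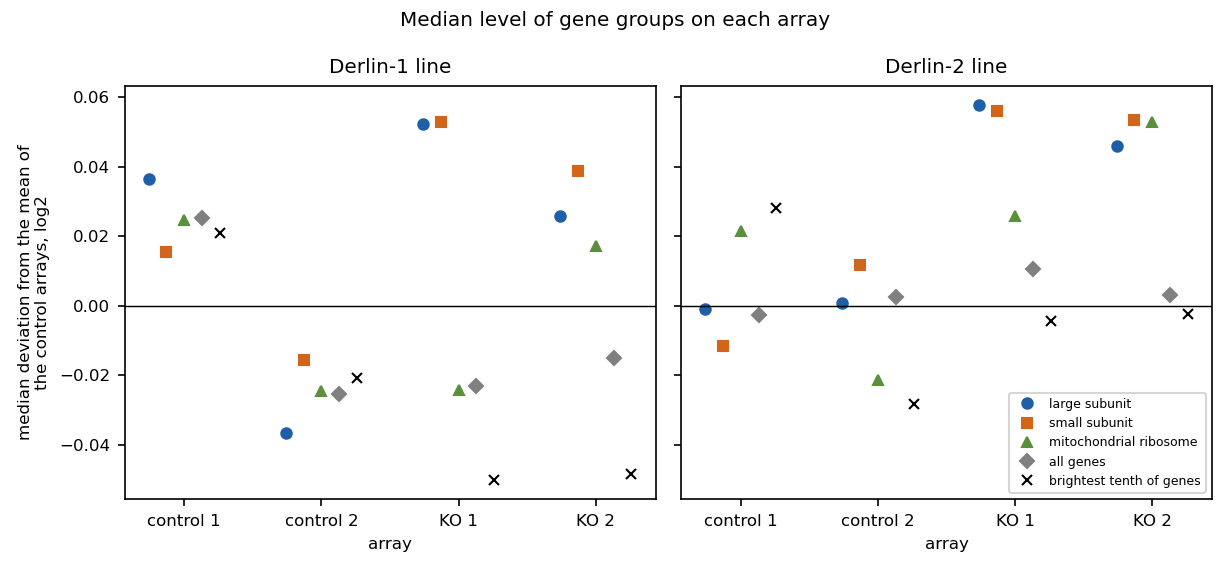
Median deviation from the mean of the line's control arrays (log2, y axis) on each array (x axis) for large-subunit and small-subunit genes, mitochondrial ribosomal protein genes, all genes, and the 1992 genes with the highest mean signal. In the Derlin-2 line the cytosolic subunits stand at 0.046 to 0.058 on the KO arrays, and in the Derlin-1 line the large-subunit median of control 1 (0.037) exceeds that of KO 2 (0.026).

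Genes whose KO arrays both lay beyond both controls were then counted. In the Derlin-1 line 34 of 79 RP genes lay wholly above and 3 wholly below, where 16.2% and 17.9% of all genes did. For Derlin-2 mice, 36 lay wholly above and 1 wholly below, where 17.9% and 14.6% of all genes did. RP genes also had tighter replicates, as the median gap between the arrays of a group was 0.053 for RP genes, 0.084 for the 1992 brightest genes and 0.14 for all genes. For RP genes this gap was 0.092 between the Derlin-1 and 0.085 between the Derlin-2 controls, and 0.034 and 0.050 between the KO arrays. The median size of the KO difference of RP genes, whatever its sign, was 0.055 in the Derlin-1 and 0.050 in the Derlin-2 line. It was below the median gap between the control arrays in each line.

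Within the large subunit, the largest differences of the Derlin-1 line were those of Rpl37, Rpl10 and Rpl41. Rpl10 encodes the protein that completes the late 60S subunit near its catalytic centre. It read 16.55 and 16.38 in the Derlin-1 controls and 16.79 and 16.77 in the KO arrays, a difference of 0.32 ± 0.10 (SE; 1.25-fold, adjusted p = 0.9999 by limma). Among Derlin-2 arrays, it read 16.43 and 16.38 in controls against 16.52 and 16.54, a difference of 0.13 ± 0.10. The Rpl10 arrays did not overlap in either line, with the KO arrays higher in both.

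Rpl41 encodes a very short basic peptide of the 60S subunit. It read 16.63 and 16.86 in the Derlin-1 controls against 16.88 and 16.95 in the KO arrays, and 16.51 and 16.82 against 16.70 and 16.62 in the Derlin-2 line. The differences were 0.17 ± 0.14 and -0.005 ± 0.14 (SE), and the Derlin-2 arrays overlapped.

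Rpl37, a zinc-finger protein of the 60S subunit, was measured by a single dim probe. It read 6.22 and 6.48 in the Derlin-1 controls and 7.76 and 6.68 in the KO arrays, and 6.03 to 6.50 in the 4 Derlin-2 arrays. The difference of 0.87 ± 0.37 (SE) in the Derlin-1 line rests on KO replicate 1, without which it was 0.33. The probe lies in the last eighth of the array's rows.

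The only large-subunit gene wholly below its controls in the Derlin-1 line was Rpl7a, which encodes a protein of the solvent side of the 60S subunit. It read 15.90 and 15.77 in controls against 15.74 and 15.65 in the KO arrays (-0.14 ± 0.10), and 15.95 and 15.95 against 15.95 and 16.00 in the Derlin-2 line (0.03 ± 0.10). For Derlin-2 mice, the only such gene was Rpl18. It read 14.13 and 14.13 in controls against 14.06 and 14.12, a difference of -0.04 ± 0.09 that was 0.022 with scaling to the 75th percentile.

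Rpl5 and Rpl11 form a particle with 5S ribosomal RNA, which can bind and inhibit MDM2 when ribosome assembly is disturbed. In the Derlin-1 line their differences were -0.02 ± 0.12 and 0.03 ± 0.10 (SE), with overlapping arrays. Among Derlin-2 arrays, Rpl11 read 16.53 and 16.43 in controls against 16.62 and 16.69 in the KO arrays (0.17 ± 0.10). Rpl5 read 14.20 and 14.07 against 14.22 and 14.30 (0.12 ± 0.12). Both lay wholly above their controls there.

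Rpl4, which lines the tunnel through which the growing chain leaves, read 16.66 and 16.76 in the Derlin-2 controls and 16.88 and 16.84 in the KO arrays (0.15 ± 0.11). In the Derlin-1 line its difference was 0.01 ± 0.11.

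The stalk of the 60S subunit, made of Rplp0, Rplp1 and Rplp2, recruits the elongation factors. Rplp1 had KO arrays above controls in both lines, at 17.73 and 17.64 against 17.78 and 17.74 in the Derlin-1 line and at 17.84 and 17.71 against 17.84 and 17.93 in the Derlin-2 line, where the lower KO array exceeded the higher control by less than the second decimal. Rplp0 read 15.52 and 15.23 against 15.28 and 15.29 in the Derlin-1 line (-0.09 ± 0.15) and 15.46 and 15.16 against 15.39 and 15.54 in the Derlin-2 line (0.15 ± 0.15). The gap between its control arrays exceeded the difference in each line. Rplp2 differed by 0.01 ± 0.10 and 0.03 ± 0.10.

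Around the exit of the tunnel, where Rpl23a and Rpl35 form the docking site for the signal recognition particle and the ER translocon, 8 proteins were listed: Rpl17, Rpl19, Rpl22, Rpl23a, Rpl26, Rpl31, Rpl35 and Rpl39. None passed the test in either line. Their median difference was 0.083 in the Derlin-1 line, where 7 of 8 were above the controls, and 0.035 in the Derlin-2 line, where 8 of 8 were. Rpl23a differed by 0.08 ± 0.10 and 0.01 ± 0.10 in the respective lines, and Rpl35 by 0.01 ± 0.10 and 0.11 ± 0.10. For Rpl39, which lines the tunnel, the values were 0.05 ± 0.13 and 0.02 ± 0.13.

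**Figure D3:**
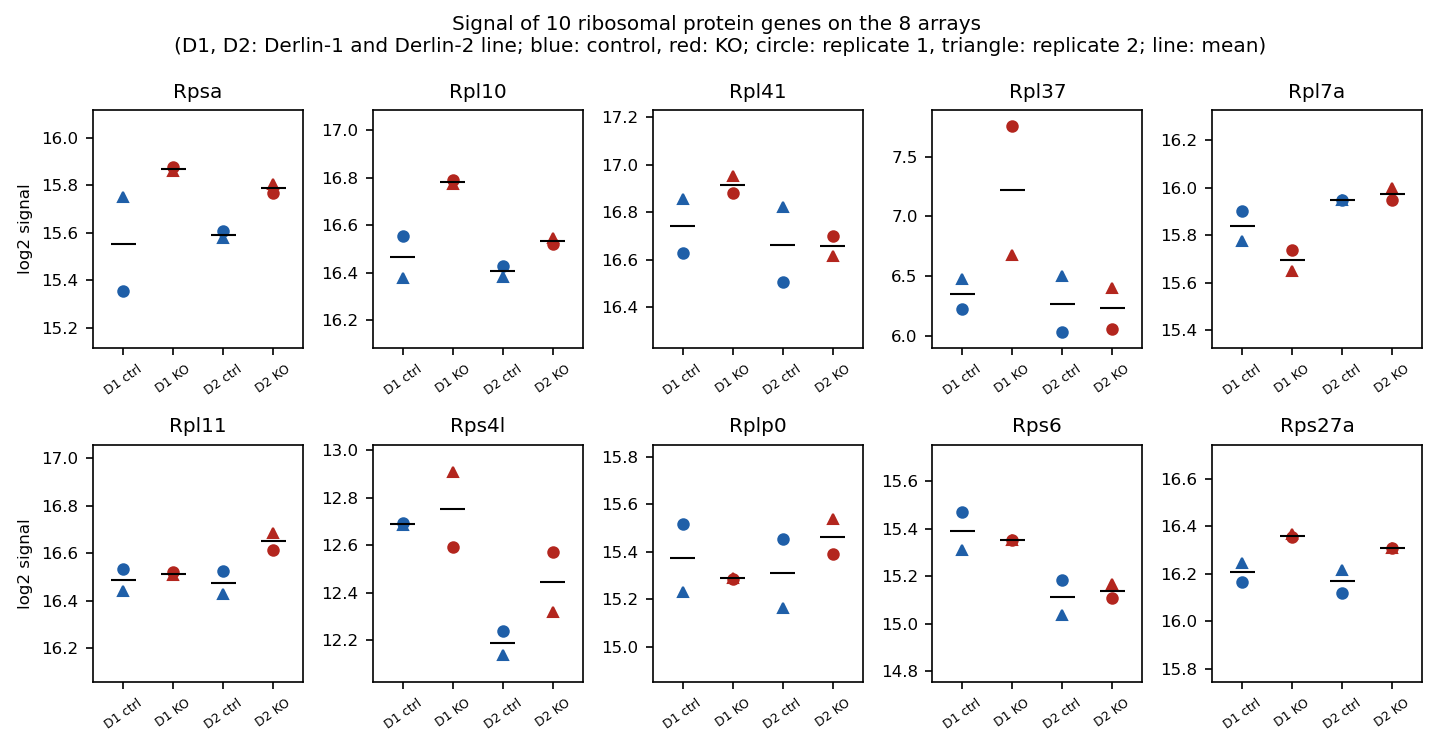
Signal (log2, y axis) of 10 ribosomal protein genes in the 4 groups (x axis; D1 and D2 are the Derlin-1 and Derlin-2 lines, ctrl is control), with 1 symbol per array (circle, replicate 1; triangle, replicate 2) and a line at the group mean. Rpl10, Rpsa and Rps27a had both KO arrays above both controls in each line, and the difference of Rpl37 in the Derlin-1 line rests on a single KO array at 7.76.

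In the small subunit the largest difference of the Derlin-1 line was that of Rpsa, a 40S protein also known as the laminin receptor precursor. It read 15.36 and 15.75 in the Derlin-1 controls and 15.88 and 15.86 in the KO arrays (0.31 ± 0.14). For Derlin-2 mice, it read 15.61 and 15.58 against 15.77 and 15.81 (0.19 ± 0.14). The KO arrays were above both controls in each line, yet the Derlin-1 controls lay farther apart than the groups did. The other Rpsa probe gave 0.15 ± 0.09 and 0.05 ± 0.09.

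Rps27a, made as a fusion with ubiquitin, read 16.17 and 16.25 in the Derlin-1 controls against 16.36 and 16.37 in the KO arrays, and 16.12 and 16.22 against 16.31 and 16.31 in the Derlin-2 line. The differences were 0.15 ± 0.09 and 0.14 ± 0.09, with KO arrays above controls in both lines.

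Rps6, the RP whose phosphorylation reports mTORC1 activity, read 15.47 and 15.31 in the Derlin-1 controls against 15.35 and 15.35 in the KO arrays. Among Derlin-2 arrays, it read 15.18 and 15.04 against 15.11 and 15.17. The differences of -0.04 ± 0.11 and 0.03 ± 0.11 were smaller than the gap between control arrays in each line, and the arrays measure its mRNA and not its phosphorylation.

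Rps2, Rps3, Rps10 and Rps20 carry the lysines that are ubiquitinated when ribosomes stall or collide. For Derlin-1 mice, the differences of their brightest probes ranged from -0.02 to 0.05, and none of the 4 had separate arrays. With the mean of all probes of a gene, Rps2 differed by 0.22 and Rps10 by 0.040 in that line. For Derlin-2 mice, the brightest probes differed by 0.05 to 0.13, and Rps3, Rps10 and Rps20 had KO arrays above both controls. Rps2 read 14.46 and 14.20 in the Derlin-2 controls against 14.39 and 14.53 in the KO arrays, so its arrays overlapped.

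Along the path of the mRNA through the 40S subunit (Rps2, Rps3, Rps9, Rps15 and Rps23) the median difference was 0.050 in the Derlin-1 and 0.058 in the Derlin-2 line. Rps13 read 15.563 and 15.597 in the Derlin-1 controls against 15.560 and 15.561 in the KO arrays, which thus lay wholly below, though narrowly. The difference of -0.02 ± 0.09 was smaller than its standard error, and it was above 0 with scaling to the 75th percentile. Rps12, a protein of the 40S head, differed by 0.12 ± 0.10 and -0.02 ± 0.10.

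Among the paralogues, the noncoding RNA Rps4l had the largest Derlin-2 difference of all members. It read 12.24 and 12.14 in the Derlin-2 controls against 12.57 and 12.32 in the KO arrays (0.26 ± 0.15), and 12.69 and 12.68 against 12.59 and 12.91 in the Derlin-1 line (0.06 ± 0.15). Rps27l, a paralogue of Rps27 known as a p53 target, read 12.06 and 12.13 against 12.04 and 12.09, and 11.99 and 12.25 against 12.19 and 12.11, so its arrays overlapped in both lines. Rpl36al, outside the symbol rule, read 13.66 and 13.70 against 13.85 and 13.80 in the Derlin-1 line and 14.11 and 14.12 against 14.45 and 14.24 in the Derlin-2 line. Its differences were 0.15 ± 0.11 and 0.23 ± 0.11, with no overlap in either line. Rpl22l1 differed by 0.08 ± 0.09 and 0.09 ± 0.09. The dim Rpl7l1 probe gave -0.30 ± 0.23 and 0.18 ± 0.23.

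Genes of RPs and ribosome-bound proteins that the symbol rule misses also stayed near the control level. Fau, which is cleaved into Rps30 and a ubiquitin-like peptide, differed by 0.04 ± 0.10 in both lines. Rack1, a scaffold protein on the 40S subunit, differed by -0.02 ± 0.10 and 0.11 ± 0.10. Rps3a1 differed by 0.01 ± 0.09 and 0.12 ± 0.09.

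The KO effects of the lines were then compared with each other. No RP gene passed the test of the difference between the lines, where 0.00754% of 39810 probes did, and 0 of 79 had an unadjusted p under 0.05, against 5.85% of probes. The median of the difference, Derlin-1 minus Derlin-2, was -0.016. The 95% interval lay within 1.5-fold for 71 of 79 genes, so for the other 8 (Rpl13a, Rpl14, Rpl37, Rpl41, Rplp0, Rps2, Rps4l and Rpsa) the interval reached a difference of that size. The largest values were those of Rpl37 (0.90 ± 0.52), Rpl10 (0.19 ± 0.14) and Rpl41 (0.18 ± 0.20) on the Derlin-1 side. On the Derlin-2 side they were those of Rplp0 (-0.24 ± 0.22), Rpl14 (-0.21 ± 0.18) and Rps4l (-0.20 ± 0.21).

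The lines share no array. Of the 79 genes, 48 (60.8%) were above the controls in both lines, 11 only in the Derlin-1 line, 18 only in the Derlin-2 line and 2 (Rpl6 and Rpl7) in neither, whereas 23.2% of 19812 genes were above in both. In 15 genes both KO arrays exceeded both controls in each line, against 2.83% of all genes. They were Rpl10, Rpl15, Rpl19, Rpl27a, Rpl31, Rpl32, Rpl32l, Rplp1, Rps18, Rps19, Rps23, Rps25, Rps27a, Rps28 and Rpsa. Across the 79 genes Pearson's r between the differences was -0.11, or 0.050 without Rpl37, and genes are not independent replicates.

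**Figure D4:**
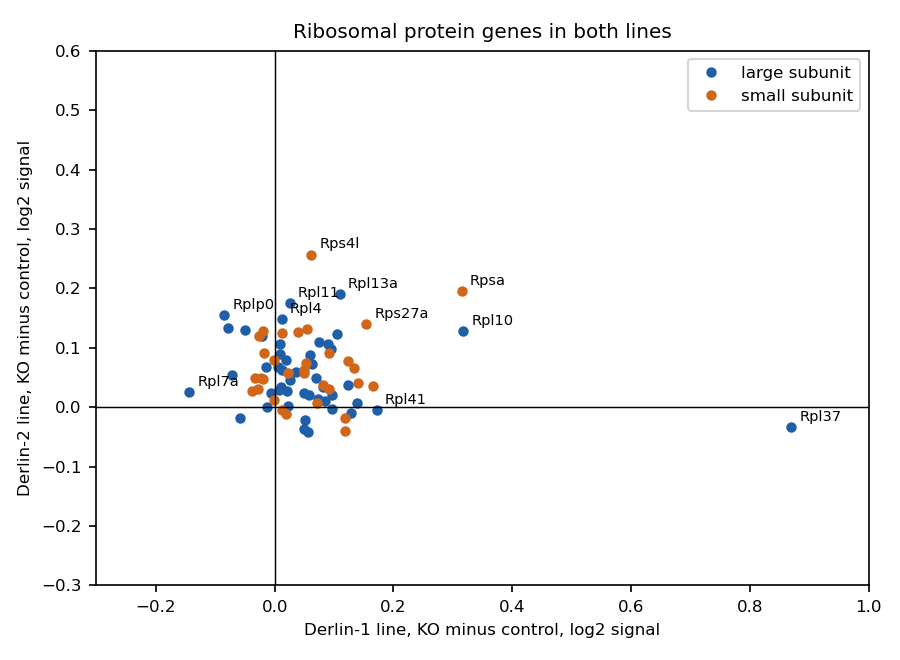
Difference between KO and control (log2 signal) of the 79 ribosomal protein genes in the Derlin-1 line (x axis) and the Derlin-2 line (y axis), large subunit in blue and small subunit in orange. 48 genes lie in the upper right quadrant.

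Gaps in level between the lines, and so between the slides, had a higher median than those between KO and control. The median size of the gap between Derlin-1 and Derlin-2 controls was 0.080 for RP genes, and that between the KO groups was 0.11. It was 0.23 for the controls over all genes. In 22 of 79 RP genes (27.8%) all 4 arrays of one line lay beyond all 4 of the other, against 34.9% of all genes and 36.1% of the 1992 brightest, 15 higher and 7 lower in the Derlin-1 line. Rps4l was 0.50, Rps2 0.49 and Rpl23, another 60S protein, 0.39 higher in the Derlin-1 controls than in the Derlin-2 controls, while Rpl39 was 0.25 lower. Rpl23 read 15.83 and 15.72 in the Derlin-1 controls and 15.43 and 15.34 in the Derlin-2 controls, with KO values of 15.80 and 15.77 against 15.37 and 15.46.

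Further probes of the same genes gave a second reading. Beside the brightest probes, 97 probes of 59 RP genes passed the filter, 94 of them well above background on all 8 arrays. Their difference had the sign of the brightest probe in 69 of 97 cases in the Derlin-1 line and 77 of 97 in the Derlin-2 line. Their median was 0.067 and 0.031. None passed the test, and 1 (Rps2) and 2 (Rpl6 and Rpl41) of 97 had an unadjusted limma p under 0.05 in the respective lines. For Rpl39, with 5 probes, the differences ran from 0.05 to 0.18 in the Derlin-1 line and from -0.07 to 0.07 in the Derlin-2 line. Mammalian genomes hold many processed RP pseudogenes, and a probe may also bind the RNA of such a near-identical copy, so values of single probes are uncertain in this respect.

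The highest value was 1.25 for a dim Rps29 probe in the Derlin-2 line, which read 2.94 and 1.84 in controls against 1.73 and 5.54. It was well above background on 5 arrays. Among probes well above background on all 8 arrays, those of a gene disagreed most for Rpl7, Rps12 and Rpl6. A Rpl7 probe annotated to a separate transcript read 12.73 and 14.51 in the Derlin-2 controls against 13.02 and 12.65 in the KO arrays, a difference of -0.78 ± 0.88, whereas the brightest Rpl7 probe gave -0.0003 ± 0.11. This probe varied as widely between Derlin-1 controls, at 10.46 and 12.64. A dim Rps12 probe read 5.46 and 5.45 against 6.11 and 5.87 in the Derlin-1 line, and 5.71 and 4.81 against 4.62 and 4.62 in the Derlin-2 line. Its differences were 0.53 ± 0.28 and -0.64 ± 0.28. For Rpl6, a probe annotated to a separate transcript read 10.45 and 10.41 in the Derlin-2 controls and 9.86 and 10.02 in the KO arrays (-0.49 ± 0.13, adjusted p = 0.62 by limma), while the other 3 Rpl6 probes differed by -0.06 to 0.07 there.

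**Figure D5:**
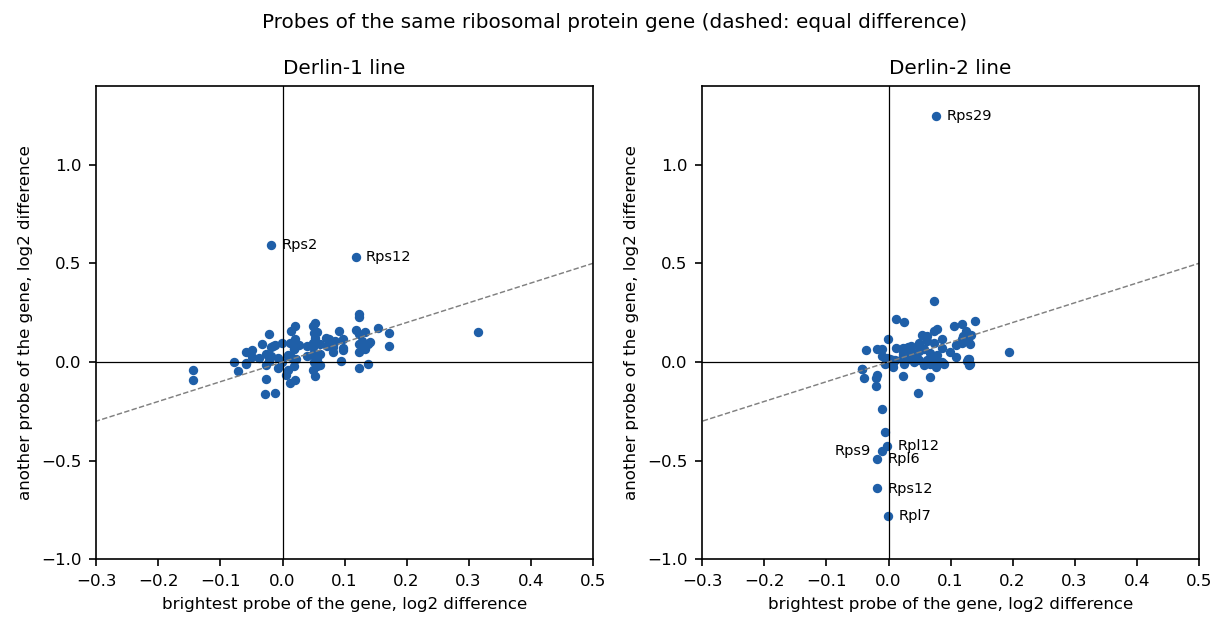
Difference between KO and control (log2) of the 97 further probes of ribosomal protein genes (y axis) against that of the brightest probe of the same gene (x axis), in the Derlin-1 line (left) and the Derlin-2 line (right). The median gap between a further probe and the brightest was 0.053 in the Derlin-1 and 0.045 in the Derlin-2 line. These gaps are close to the median size of the KO difference of RP genes (0.055 and 0.050). The labelled probes, such as that of Rpl7 at -0.78, stand farther from the dashed line of equal differences.

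The genes that act on RP mRNAs and on the ribosome were described by lists, and 0 genes of each list passed the test in either line. The 18 measured mRNAs of other proteins with a TOP tract, such as the elongation factors Eef1a1 and Eef2 and the translation-linked protein Tpt1, had median differences of -0.011 and 0.039 in the Derlin-1 and Derlin-2 lines. Eef1a1 differed by 0.02 ± 0.09 and 0.03 ± 0.09, Eef2 by -0.10 ± 0.11 and -0.01 ± 0.11, and Tpt1 by -0.02 ± 0.10 and 0.07 ± 0.10. Among Derlin-1 arrays, 8 of 18 were above the controls, and in the Derlin-2 line 15 of 18.

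Factors of translation initiation, elongation and termination had medians of -0.031 and 0.042, with 14 and 37 of 47 above the controls. Genes of ribosome biogenesis, which transcribe and process ribosomal RNA and assemble the subunits, had medians of -0.023 and 0.044, with 16 and 31 of 46 above. Mitochondrial RP genes had medians of -0.0002 and 0.042, with 39 and 57 of 78 above. For Derlin-1 mice, the medians of these lists thus lay at or below 0 while those of the cytosolic RPs were at 0.049 and 0.050, and in the Derlin-2 line all lay between 0.039 and 0.058. No test of these gaps was made.

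Genes of mTORC1 signalling, which controls TOP mRNAs, had medians of -0.033 and 0.001, and those of eIF2 signalling had medians of 0.077 and 0.045. Genes of the ribosome at the ER and of ribosome quality control, including the Sec61 translocon, had medians of 0.051 and 0.021, with 14 of 22 above the controls in each line.

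Markers of the cell types that the dissection could hold were set beside these values. No marker passed the test, and their part in the RP values was not tested. Markers of granule neurons, the principal cells of the dentate gyrus, were well above background on all 8 arrays in 7 of 7 cases. Of these, 2 of 7 were higher in the Derlin-1 line (median -0.043, from -0.54 for C1ql2 to 0.11 for Calb1). In the Derlin-2 line 4 of 7 were higher (median 0.005, from -0.16 for Calb1 to 0.47 for Tdo2). Their summed level, to which bright probes add most, was 15.61 to 16.02 on the log2 scale in the Derlin-1 controls. It was 15.64 to 15.96 in the KO arrays of that line, and 15.30 to 15.35 and 15.28 to 15.31 in the Derlin-2 line. Blood genes differed most between Derlin-1 controls. Their summed level was 14.89 on replicate 1 and 16.04 on replicate 2, against 14.95 and 15.07 on the KO arrays, and 4 of 4 measured blood genes were lower in the KO group by 0.44 to 0.74. Replicate 2 of the Derlin-1 controls, whose omission reduced the RP medians of that line under quantile normalization, had the lower RP level of the controls under that scaling and the higher one with scaling to the 75th percentile (a median over all RP genes of 0.020 against -0.020). Microglial genes were 5 of 5 lower in the Derlin-1 KO group, at 14.47 to 14.55 against 14.67 to 14.72. Markers of newborn neurons were 1 of 6 higher in the Derlin-1 line and 5 of 6 higher in the Derlin-2 line, with medians of -0.12 and 0.33. In the latter line the KO arrays were above both controls for Eomes (0.94), Igfbpl1 (0.52), Sox11 (0.38), Neurod1 (0.28) and Dcx (0.17), and Stmn1 differed by -0.02. Of all genes, 17.9% lay wholly above in that line. The Eomes probe was dim, with a mean signal of 5.6. The summed level, in which probes with a high signal weigh most, was 15.09 to 15.33 in these controls and 15.23 to 15.27 in the KO arrays. Choroid plexus markers were 4 of 5 higher in the Derlin-1 line (median 0.27, Ttr 0.92) and 3 of 5 in the Derlin-2 line (median 0.21). Their summed level was 10.40 to 10.57 against 10.57 to 10.67, and 10.88 to 12.05 against 11.00 to 12.20. Markers of CA pyramidal neurons were 4 of 6 higher in the Derlin-1 line (median 0.25), at 14.56 to 14.61 against 14.60 to 14.69, and 2 of 6 in the Derlin-2 line (median -0.12). Those of interneurons were 5 of 5 higher in the Derlin-1 KO group, at 16.24 to 16.42 against 15.97 to 16.05. In the Derlin-2 line 1 of 5 was higher, at 16.31 to 16.32 against 16.52 to 16.63. There, 0 of 4 blood genes and 3 of 5 microglial genes were higher. Markers of proliferation were 2 and 3 of 5 higher in the respective lines, and those of stem cells and astrocytes 2 and 3 of 6. For oligodendrocytes 1 and 3 of 5 were higher, and for endothelium 2 and 4 of 5.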

How the data were processed

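Total RNA of the dentate gyrus was hybridised to 8 single-colour Agilent arrays. The deposited scanner files hold spot intensity, background-subtracted and detrended by Agilent Feature Extraction (version 10.7.1.1), per the file headers. The authors' tables hold log2 values, which the methods describe as quantile-normalized in GeneSpring and which served as an alternative. They also hold fold changes and their direction, which were not used. For genes listed below under both, the deposited differences sat at a near-constant offset per line from those with scaling to the 75th percentile. They were 0.0242 against 0.0225 for Rpl18 and 0.0804 against 0.0786 for Rpl7 in the Derlin-2 line. For Rpl5 in the Derlin-1 line they were 0.0080 against 0.0188. The 2 alternatives are therefore not independent, and for these genes the deposited values did not follow the quantile normalization used here. In the Derlin-2 line the deposited values gave medians of 0.106 (large subunit) and 0.123 (small), against 0.047 and 0.058 with that normalization.

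After outlier spots were dropped, signals (with a floor of 1) were put on the log2 scale, quantile normalization was applied across all 8 arrays, and spots of a probe were averaged. Of 56605 probes, 40001 were kept that were well above background on both arrays of at least 1 group. Group means were fitted with limma (version 3.58.1, R version 4.3.3), with 4 residual and 2.08 prior degrees of freedom. P-values were two-sided and adjusted over all probes by Benjamini-Hochberg at 0.05, and the fit was tested on simulated data. The number of arrays limits the precision. Normexp used median signals because the files hold no mean signals. Beside genes fixed by role, the text names up to 4 genes per line and direction with separate arrays, the 3 largest differences between the lines each way, and the 3 genes whose probes differ most. Rpl23 and Rps29 were named after their values were seen. Some genes of the lists and of the naming rule are not reported here. Members, lists and tests were chosen with earlier results of these data known.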

Additional observations from a re-analysis of the deposited data

Results flagged for a closer look

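For Rpl18 and Rps13 both KO arrays lay on one side of both controls in the Derlin-1 line and on the other side in the Derlin-2 line. The difference of the KO effects, Derlin-1 minus Derlin-2, was 0.0859 for Rpl18 (adjusted p = 0.979 by limma) and -0.0672 for Rps13 (adjusted p = 0.986 by limma) on the log2 scale. Neither passed the test.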

How the results depend on the processing

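No RP gene passed the test in any of the alternatives, and the medians of both subunits were above 0 throughout. Of the summary values 170 stayed within the replicate spread, or within 1.5 times for counts, and 14 moved; of the values of named genes 881 kept their sign and 67 reversed. The cause was not tested. Leaving out each array in turn gave medians of 0.019 to 0.067 (large subunit) and 0.024 to 0.079 (small) in the Derlin-1 line, and 0.053 to 0.074 (small) in the Derlin-2 line. It gave 37 to 68 and 37 to 66 genes without overlap, since 1 array against 2 overlaps less often. A replicate block left 0 RP genes called, and the 18 probes called in the Derlin-2 line became 0. With 2 pairs, whose deviations correlated at 0.27 and -0.098 over all probes, the numbers were not taken to pair the arrays. With 2 arrays a group, signs of small differences were not resolved.

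Scaling to the 75th percentile gave medians of 0.068 (small, Derlin-1), 0.104 (large, Derlin-2) and 0.121 (small, Derlin-2), and reversed Derlin-1 differences to 0.019 for Rpl5, 0.021 for Rpl7, 0.037 for Rps13, 0.028 for Rps2 and 0.0048 for Rps6. It reversed Derlin-2 differences to 0.022 for Rpl18, 0.046 for Rpl41, 0.047 for Rpl6, 0.079 for Rpl7 and 0.041 for Rps12. The deposited log2 values, whose differences followed those of that scaling, gave 0.106 (large) and 0.123 (small) in the Derlin-2 line. They gave 0.0080 for Rpl5, 0.010 for Rpl7, 0.026 for Rps13 and 0.017 for Rps2 in the Derlin-1 line, and 0.024 for Rpl18, 0.048 for Rpl41, 0.049 for Rpl6, 0.080 for Rpl7 and 0.043 for Rps12 in the Derlin-2 line. Normexp gave 0.033 (small, Derlin-1), with 0.032 for Rpl5 and 0.0033 for Rps27l, and in the Derlin-2 line 0.047 for Rpl41 and -0.064 for Rps10. The mean of all probes gave 0.040 for Rps10, 0.0044 for Rps13 and 0.22 for Rps2 in the Derlin-1 line, and 0.012 for Rpl18 and -0.054 for Rps13 in the Derlin-2 line.

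Leaving out each array moved Derlin-1 differences over -0.20 to 0.044 for Rpl14, -0.12 to 0.080 for Rpl5, -0.16 to 0.045 for Rpl6, -0.088 to 0.063 for Rpl7, -0.23 to 0.059 for Rplp0, -0.13 to 0.096 for Rps2, -0.12 to 0.041 for Rps6 and -0.021 to 0.072 for Rpl11. The ranges were -0.027 to 0.046 for Rpl35, -0.091 to 0.11 for Rpl4, -0.079 to 0.099 for Rplp2, -0.048 to 0.072 for Rps20, -0.065 to 0.0082 for Rps27l, -0.0028 to 0.10 for Rps3, -0.099 to 0.054 for Rps10 and -0.096 to 0.22 for Rps4l. In the Derlin-2 line they were -0.099 to 0.15 for Rpl39, -0.043 to 0.0070 for Rpl6, -0.057 to 0.057 for Rpl7, -0.098 to 0.16 for Rps27l, -0.023 to 0.045 for Rpl23a and -0.27 to 0.20 for Rpl37. They were -0.16 to 0.15 for Rpl41, -0.070 to 0.034 for Rps12, -0.0032 to 0.26 for Rps2, -0.047 to 0.10 for Rps6 and -0.00080 to 0.052 for Rpl7a.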
